A study of Homo sapiens with 18 samples.

Results

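Distal RELA sites joined by GR are regions that RELA, the transactivating subunit of NF-κB, occupied after IL-1β and where the glucocorticoid receptor (GR) had little presence after budesonide alone but bound after IL-1β-plus-budesonide. They were chosen from the deposited table of binding intensities by a rule with 5 parts. The site lay more than 1000 bp and at most 200000 bp from the nearest transcription start, RELA intensity with IL-1β was at least 4, GR intensity with budesonide was below 4, GR intensity with IL-1β-plus-budesonide was at least 4, and GR with IL-1β-plus-budesonide exceeded GR with budesonide by at least 1. The rule found 984 of 11571 sites, which is 8.5% of all sites and 20.6% of the 4767 distal RELA sites. Their nearest genes numbered 797.

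The series profiled A549 cells, a human lung adenocarcinoma line of alveolar type II character and wild-type genotype, by ChIP-seq with antibodies to GR (8 libraries) and RELA (8 libraries), beside 2 input libraries. Cells received IL-1β (1 ng/mL) plus the glucocorticoid budesonide (300 nM) for 1 h (I+B), budesonide alone (Bud), IL-1β alone or neither (NS), with 2 libraries for each of the 9 conditions. The table gives 1 intensity per site for GR with IL-1β-plus-budesonide, GR with budesonide, RELA with IL-1β-plus-budesonide and RELA with IL-1β, pooled by the authors over libraries. Thus depth and the spread between libraries are unknown, no value below carries a replicate error, and no test between conditions was possible. Intensities are treated as log2 values, so that a difference of 1 is a 2-fold ratio. All values come from 1 cell line and 1 time.

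NF-κB dimers that contain RELA bind κB elements and enter the nucleus within minutes of IL-1β, where they switch on chemokines, adhesion molecules and their own inhibitors. Ligand-bound GR binds palindromic glucocorticoid response elements (GREs) as a dimer, and can also be found at regions held by other factors such as AP-1 or NF-κB without a recognisable GRE. In airway epithelium, many inflammatory genes are induced by IL-1β and restrained by glucocorticoid, whereas a further group of genes, often with feedback roles, is induced by both.

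The sequences below were picked to show particular features and were read from the GRCh38 reference on the forward strand. Capitals mark κB elements, meaning matches on either strand to all 9 defined positions of the κB consensus, or GREs, meaning at least 10 of the 12 defined positions of the palindrome of AGAACA, any 3 bases and TGTTCT. They are not a typical sample, because repeated units made up 1.12% of joined sites and GREs occurred at 2.44%. At 48.9% of joined sites there was neither a κB element nor a GRE match of at least 9 positions. The first 3 show repeated units with several κB elements, at the pair of joined sites of the highest GR intensity and at the site of the largest RELA difference upward: the FSTL3 stretch spans 2 copies of a 107 bp unit, the SERPINA6 stretch 3 copies of a 56 bp unit and the NXN stretch 3 copies of a 42 bp unit. The FSTL3 stretch also opens with a GRE match at 10 positions. This match lies outside the 200 bp around the centre that the motif shares use. Within those 200 bp the best GRE match of the site had 9 positions, so the site is not among the 2.44%.
FSTL3 site, chr19:674605-674818: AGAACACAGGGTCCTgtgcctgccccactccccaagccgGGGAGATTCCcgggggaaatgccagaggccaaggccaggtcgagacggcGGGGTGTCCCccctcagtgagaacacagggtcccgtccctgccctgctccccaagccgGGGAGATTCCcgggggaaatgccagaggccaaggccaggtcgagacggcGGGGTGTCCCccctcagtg
SERPINA6 site, chr14:94346068-94346235: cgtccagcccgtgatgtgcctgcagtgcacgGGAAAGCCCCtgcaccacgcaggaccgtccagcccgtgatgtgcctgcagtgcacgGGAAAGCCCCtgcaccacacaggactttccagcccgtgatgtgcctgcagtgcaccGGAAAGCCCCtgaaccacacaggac
NXN site, chr17:867252-867377: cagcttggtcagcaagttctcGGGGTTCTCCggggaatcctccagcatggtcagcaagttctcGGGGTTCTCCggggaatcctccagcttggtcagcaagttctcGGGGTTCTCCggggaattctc

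The next 4 come from the strongest joined sites outside such repeats. UBE2E1 and ZFP36 held full κB elements. CRIM1 and EFNA1 held none, and capitals there mark κB matches at 8 of the 9 positions, of which EFNA1 had 4 in 92 bp.
CRIM1 site, chr2:36456356-36456415: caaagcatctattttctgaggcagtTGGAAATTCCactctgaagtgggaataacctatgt
UBE2E1 site, chr3:23748798-23748857: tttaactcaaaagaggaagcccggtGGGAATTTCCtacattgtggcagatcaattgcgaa
ZFP36 site, chr19:39402874-39402947: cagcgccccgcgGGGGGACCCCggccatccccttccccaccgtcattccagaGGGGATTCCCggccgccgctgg
EFNA1 site, chr1:155124742-155124833: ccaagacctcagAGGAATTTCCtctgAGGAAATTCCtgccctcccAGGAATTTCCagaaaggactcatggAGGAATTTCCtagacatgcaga

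The following 4 joined sites had both a GRE and a κB element. Their centres lay 103.5 bp apart at TNFAIP3, 31.5 bp at KIFC3, 73.5 bp at DGKD and 69.5 bp at BHLHE40. The GRE upstream of TNFAIP3 matched all 12 positions, those of KIFC3 and DGKD matched 11, and that of BHLHE40 matched 10. In these lines the GRE stands first.
TNFAIP3 site, chr6:137707707-137707846: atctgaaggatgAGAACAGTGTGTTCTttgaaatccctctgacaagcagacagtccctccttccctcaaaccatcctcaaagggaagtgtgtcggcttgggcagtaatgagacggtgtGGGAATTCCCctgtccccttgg
KIFC3 site, chr16:57764678-57764745: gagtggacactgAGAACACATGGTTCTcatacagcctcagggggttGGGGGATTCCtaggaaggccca
DGKD site, chr2:233453631-233453740: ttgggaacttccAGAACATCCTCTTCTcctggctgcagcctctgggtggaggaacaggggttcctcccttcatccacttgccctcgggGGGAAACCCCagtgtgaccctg
BHLHE40 site, chr3:4869967-4870072: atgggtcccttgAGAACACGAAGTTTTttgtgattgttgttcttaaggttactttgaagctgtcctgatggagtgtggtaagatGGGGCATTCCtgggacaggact

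Sites near genes described below are represented by 9 more. FOSL2 and GPCPD1 had among the largest RELA differences upward and NR4A2 among the largest downward, and the others lay near cytokine, signalling, transcription factor and enzyme genes. The CXCL8 element matched 8 of 9 κB positions and the others all 9.
FOSL2 site, chr2:28340053-28340112: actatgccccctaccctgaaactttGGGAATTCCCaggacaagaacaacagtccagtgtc
GPCPD1 site, chr20:5477448-5477507: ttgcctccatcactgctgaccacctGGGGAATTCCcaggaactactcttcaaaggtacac
NR4A2 site, chr2:156333230-156333289: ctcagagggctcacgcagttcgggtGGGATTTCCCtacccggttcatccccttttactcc
CXCL8 site, chr4:73734724-73734783: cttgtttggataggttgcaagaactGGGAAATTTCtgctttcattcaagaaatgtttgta
CCL2 site, chr17:34235757-34235816: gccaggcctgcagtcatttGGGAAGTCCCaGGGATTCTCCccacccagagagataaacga
JAK1 site, chr1:64922393-64922452: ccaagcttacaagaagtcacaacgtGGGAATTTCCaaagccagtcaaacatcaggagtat
SOCS3 site, chr17:78316964-78317023: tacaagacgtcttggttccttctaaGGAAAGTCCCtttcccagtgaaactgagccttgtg
IRF1 site, chr5:132475535-132475607: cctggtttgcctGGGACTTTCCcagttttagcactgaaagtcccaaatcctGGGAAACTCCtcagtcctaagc
NAMPT site, chr7:106425142-106425201: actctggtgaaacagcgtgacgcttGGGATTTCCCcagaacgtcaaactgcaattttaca

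The values that chose the sites are given here as a description only. GR intensity with IL-1β-plus-budesonide had a median of 4.81 (quartiles 4.41 and 5.31, range 4.00 to 9.41), against a median of 2.82 with budesonide (quartiles 2.12 and 3.34, range 0 to 3.99). The difference had a median of 2.06 and reached 6.76. A GR difference of at least 1 was found at 26% of all sites and a GR intensity of at least 4 with IL-1β-plus-budesonide at 68.2% of all sites, both values used by the rule. At 31 joined sites GR with budesonide was listed at 0. RELA intensity with IL-1β had a median of 5.58 (range 4.01 to 9.63). At each threshold, the nearest sites inside and outside differed little in the value concerned and could differ more in their other intensities. A TAF1A site with GR at 4.00 was inside and a UBE2E1 site at 3.9981 was outside. Likewise, a ZFHX3 site with a GR difference of 1.0018 was inside and a BCL2L11 site at 0.9975 outside, a KRT7 site with GR at 3.9938 with budesonide was inside and an ITGB8 site at 4.0048 outside, and a ZNF462 site with RELA at 4.009 with IL-1β was inside and an ARFGAP3 site at 3.9926 outside. A further 172 sites met every other part of the rule and had a GR difference below 1.

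For comparison, 1840 distal RELA sites stayed below 4 for GR with both treatments and with budesonide (sites without GR), and 1771 had GR at 4 or above with budesonide (sites with GR already). GR with IL-1β-plus-budesonide had a median of 3.09 at sites without GR and 5.63 at sites with GR already.

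**Figure D1:**
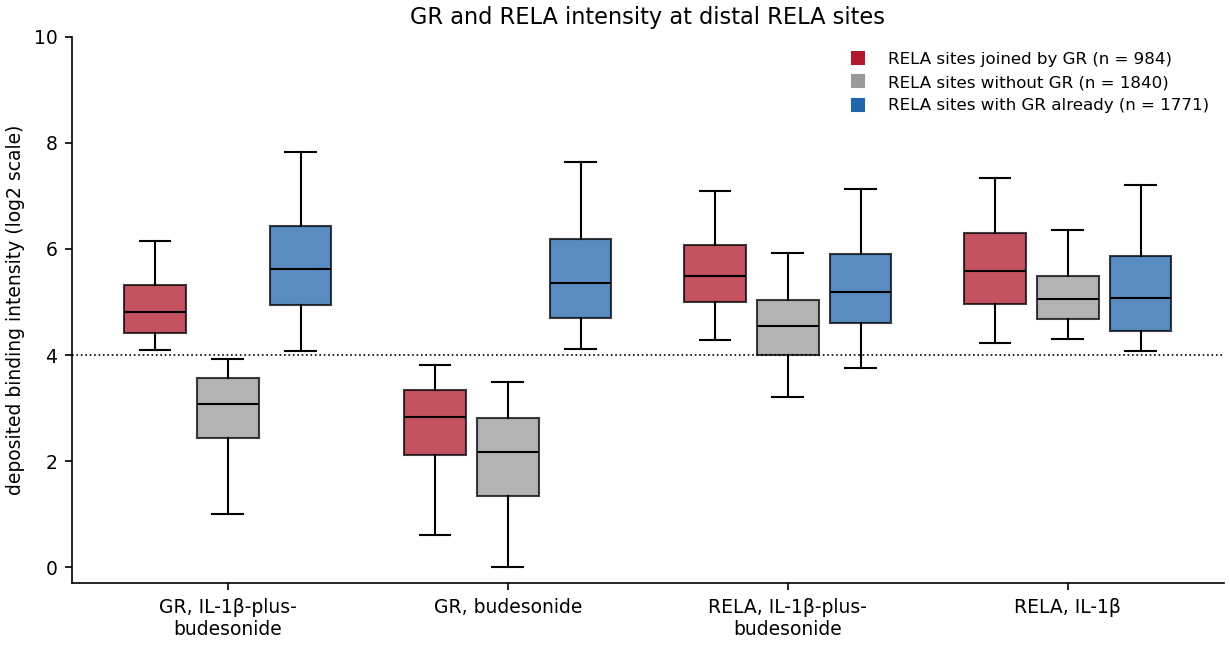
Deposited binding intensities (log2 scale) of GR and RELA at RELA sites joined by GR, sites without GR and sites with GR already. Boxes span the quartiles with the median as a line, whiskers run over the 5th to 95th percentile of sites, and the dotted line is the intensity limit of 4. RELA with IL-1β-plus-budesonide, the one intensity the rule did not use, had a median of 5.48 at joined sites, 4.55 at sites without GR and 5.18 at sites with GR already.

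RELA was largely retained on cotreatment. With IL-1β-plus-budesonide, RELA intensity was at least 4 at 960 of 984 joined sites (97.6%, Wilson 95% interval 96.4 to 98.4, counting error only), against 74.8% of sites without GR and 92.2% of sites with GR already. The same limit was passed by 86.6% of all distal RELA sites and by 61.8% of all sites. All distal RELA sites had RELA of at least 4 with IL-1β by choice. Joined sites and sites without GR were separated by GR intensity with the same cotreatment. The shares therefore describe the chosen groups and are no test. Joined sites also started from stronger RELA with IL-1β than sites without GR, with medians of 5.58 and 5.05. Where RELA with IL-1β was 4 to 5, the limit was passed by 94.4% of joined sites and 56.6% of sites without GR. At 5 to 6 the shares were 97.6% and 88.5%, and in both higher ranges they were 100%. Sites with GR already had 84.0% at 4 to 5 and 99.3% at 5 to 6. At joined sites, RELA intensity had a median of 5.48 with IL-1β-plus-budesonide, against 5.58 with IL-1β. The difference between these treatments had a median of -0.15 at joined sites (quartiles -0.52 and 0.25), -0.56 at sites without GR (quartiles -0.91 and -0.26), -0.05 at sites with GR already and -0.30 over all distal RELA sites. The quartile ranges of joined sites and sites without GR overlapped.

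At a limit of 0.5, RELA was lower with IL-1β-plus-budesonide than with IL-1β at 259 joined sites (26.3%), while the background was 36.2% of distal RELA sites and 23.3% of all sites. It was higher at 160 joined sites (16.3%), and here the background was 12.3% of distal RELA sites and 34.8% of all sites. At sites without GR, RELA was lower by this limit at 55.5% and higher at 1.30%, and at sites with GR already it was lower at 21.2% and higher at 22.3%. The remaining 565 joined sites stayed within 0.5 in either direction.

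Because RELA with IL-1β had to reach 4 for every site, the difference was also read within ranges of that intensity. Where RELA with IL-1β was 4 to 5, the difference had a median of 0.37 at 267 joined sites, -0.53 at 852 sites without GR and 0.22 at 835 sites with GR already. At 5 to 6, the medians were -0.15 at joined sites, -0.60 at sites without GR and -0.13 at sites with GR already. At 6 to 7 they were -0.41 at joined sites, -0.52 at sites without GR and -0.30 at sites with GR already. At 7 or above they were -0.42 at 97 joined sites, -0.58 at 20 sites without GR and -0.31 at 125 sites with GR already. Thus the medians of joined sites and sites without GR lay furthest apart where RELA with IL-1β was weakest.

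The rule used GR with IL-1β-plus-budesonide and RELA with IL-1β, so what follows is a description of the chosen sites only. Among joined sites the difference in RELA was also read by classes of GR intensity with IL-1β-plus-budesonide. Its median was -0.28 at 608 sites with GR at 4 to 5, 0.05 at 305 sites at 5 to 6 and 0.41 at 71 sites at 6 or above. RELA was higher by 0.5 at 9.87% of the first, 22.95% of the second and 42.3% of the third of these classes. Within ranges of RELA with IL-1β, GR was split at 5 only, and the medians had the same order in each range. In the range of 4 to 5, the median was 0.69 at sites with GR at 5 or above and 0.20 at sites with GR below 5. At 5 to 6 it was 0.24 with the stronger GR and -0.30 with the weaker, at 6 to 7 it was -0.23 with the stronger and -0.53 with the weaker, and at 7 or above it was -0.37 with the stronger and -0.52 with the weaker. Across the 984 sites, Spearman's rho between GR with both treatments and the RELA difference was 0.30, given as a description. Both intensities came from cells of the same treatment and from the same genomic windows, and what else they share was not tested.

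**Figure D2:**
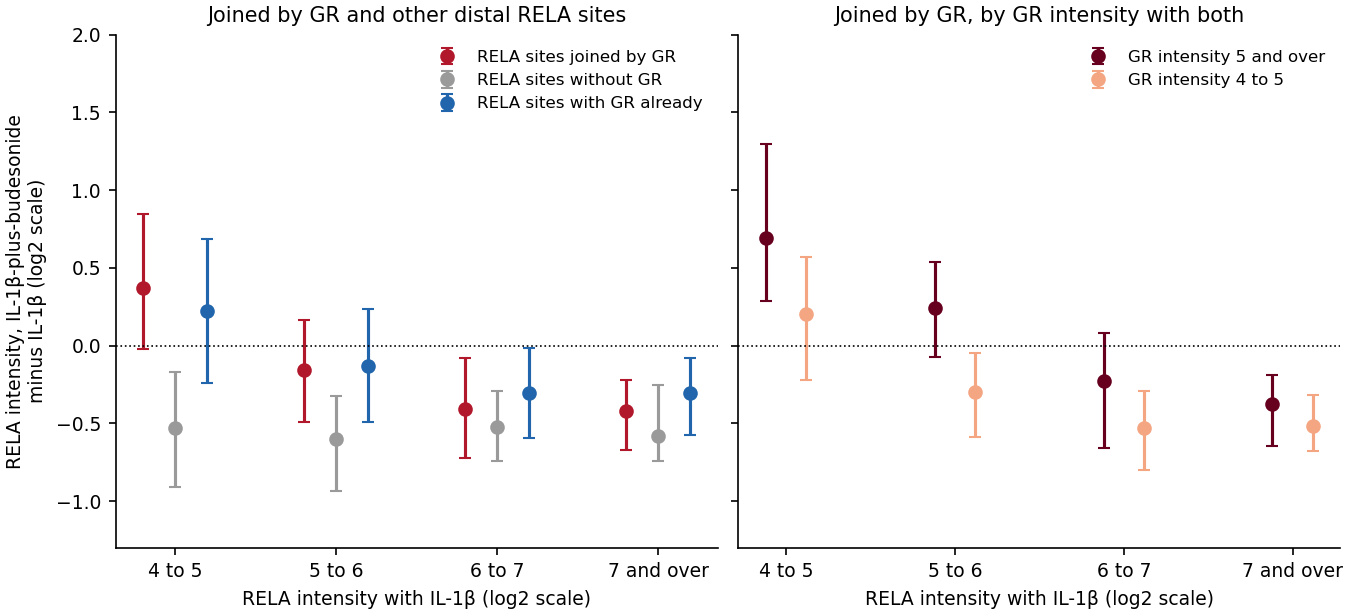
Difference in RELA intensity, IL-1β-plus-budesonide minus IL-1β (log2 scale), by the RELA intensity with IL-1β. Points are medians and bars the quartiles over sites. The intensities that group the sites were used by the rule. Left, joined sites, sites without GR and sites with GR already; right, joined sites with GR at 5 or above and at 4 to 5 with both treatments. In the lowest range, joined sites sit at 0.37 and sites without GR at -0.53, and joined sites with the stronger GR lie above those with the weaker GR in all 4 ranges.

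The DNA under joined sites held full κB elements far more often than GREs. A full κB match lay within 200 bp around the centre at 412 of 984 joined sites (41.9%, Wilson 95% interval 38.8 to 45.0), against 44.1% of sites without GR, 10.3% of sites with GR already and 18.7% of all sites. At the same joined sites, sequence 2000 bp away held a match in 3.35%. A GRE match was found at 24 joined sites (2.44%, interval 1.64 to 3.60), against 0.707% of sites without GR, 6.04% of sites with GR already and 12.4% of all sites. It was found in 1.02% of the windows 2000 bp from joined sites and in 1.47% of those 2000 bp from sites without GR. The GRE share of sites without GR thus lay below that of their own distant windows. The intervals of joined sites and sites without GR overlapped for κB and did not overlap for GRE. Sites without GR were chosen for low GR intensity, and sites near each other are not independent, so this is a description and no test. Over all distal RELA sites the shares were 30.6% for κB and 3.06% for GRE. The GRE share of joined sites thus lay slightly below that of distal RELA sites as a whole.

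Weaker GRE matches showed the same order across joined sites, sites without GR, sites with GR already and all sites. At least 9 of 12 positions were matched at 16.9% of joined sites, against 9.78% of sites without GR, 23.7% of sites with GR already and 34.5% of all sites. The single GRE hexamer AGAACA was present at 18.7% of joined sites, with 13.0% in the windows 2000 bp away, against 11.4% of sites without GR, 23.2% of sites with GR already and 28.4% of all sites. Windows 2000 bp from sites without GR held it at 15.7%, more often than those sites themselves. Over all distal RELA sites, 16.6% matched at least 9 positions and 17.6% held the hexamer, close to the shares of joined sites. A full κB match together with a GRE of at least 9 positions occurred at 75 joined sites (7.62%), against 3.32% of sites without GR, 1.98% of sites with GR already and 3.03% of all sites. By contrast, 481 joined sites (48.9%) had neither a full κB match nor a GRE of 9 positions, a share close to the 49.4% of sites without GR.

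Motifs of other factors varied less. AP-1, the FOS and JUN family factor, has the elements TGAGTCA and TGACTCA, and these were present at 201 joined sites (20.4%), against 16.8% of sites without GR, 18.9% of sites with GR already and 15.5% of all sites. The C/EBP element TTGCNNAA was present at 20.8% of joined sites, 25% of sites without GR and 22.1% of sites with GR already. The forkhead elements TGTTTAC and TGTTTGC were present at 13.2% of joined sites, 13.0% of sites without GR and 19.5% of sites with GR already. The TEAD element GGAATG was present at 14.4% of joined sites, 15.6% of sites without GR and 18.9% of sites with GR already. All sites held these at 20.2% (C/EBP), 16.8% (forkhead) and 17.9% (TEAD). Matches were searched on both strands. GC content of the 400 bp was higher at joined sites, with a median of 47.5%, than at sites without GR (43.8%), sites with GR already (46.5%) and all sites (44.5%), and its part in these shares was not tested.

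**Figure D3:**
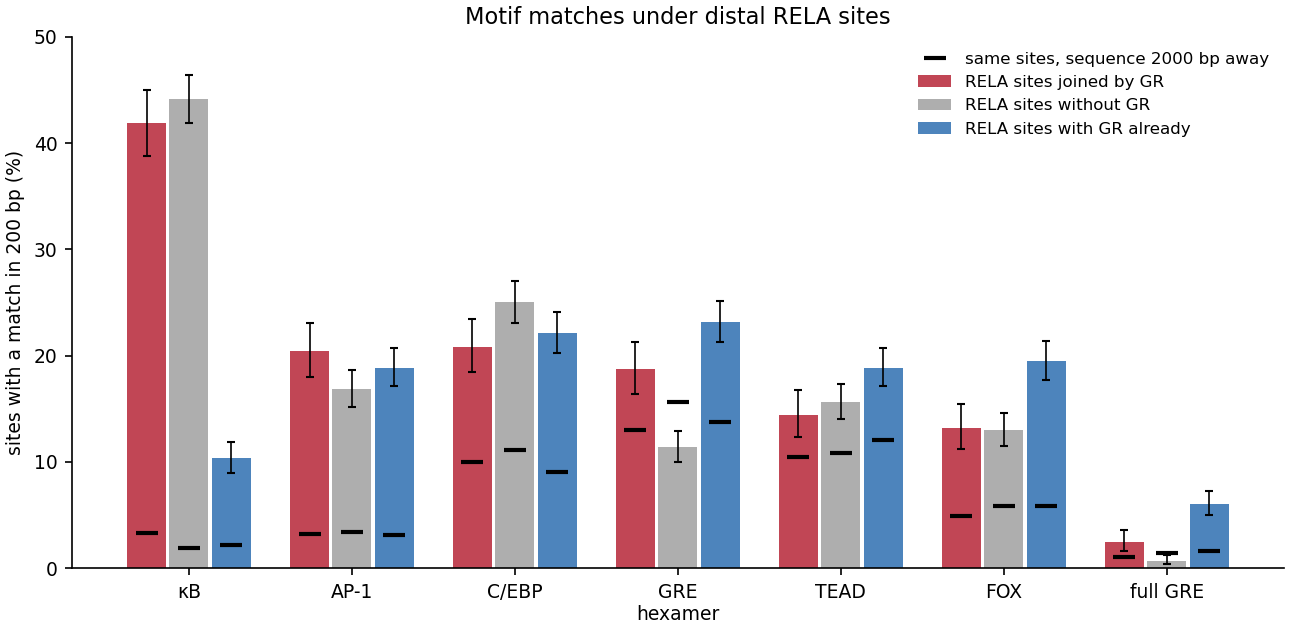
Share of sites (%) with a motif match in the 200 bp around the centre, at RELA sites joined by GR, sites without GR and sites with GR already. Error bars are Wilson 95% intervals for counting error, and black dashes show the share in sequence 2000 bp from the same sites. Joined sites resemble sites without GR for κB (41.9% and 44.1%) and lie between both groups for the full GRE (2.44%, against 0.707% and 6.04%) and the GRE hexamer.

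The κB elements of joined sites sat less centrally in the 400 bp windows than those of sites without GR. Each window was shared by GR and RELA, and how its centre relates to the RELA peak was not tested. In the whole 400 bp, 590 full κB matches at joined sites had a median distance of 35 bp from the centre and 36.8% lay within 20 bp, against 17 bp and 56.1% for the 1006 matches of sites without GR. The 252 matches of sites with GR already had a median distance of 44.5 bp. Joined sites held 2 or more κB elements at 92 sites (9.35%), against 7.01% of sites without GR, 0.847% of sites with GR already and 3.14% of all sites. GR with IL-1β-plus-budesonide, which the rule used, had a median of 4.79 at the 518 joined sites with no κB element, 4.82 at the 374 with 1, 4.85 at the 77 with 2 and 5.54 at the 15 with 3 or more. The repeat sites FSTL3, SERPINA6, NXN and CTBP1 were among these 15. The most frequent elements among the 590 were gggaaattcc (47 times), gggaatttcc (46) and gggactttcc (40). The UBE2E1 and JAK1 sites shown above hold the second of these and the IRF1 site the third. These motif matches describe letters in the windows and do not show that a factor touches them.

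**Figure D4:**
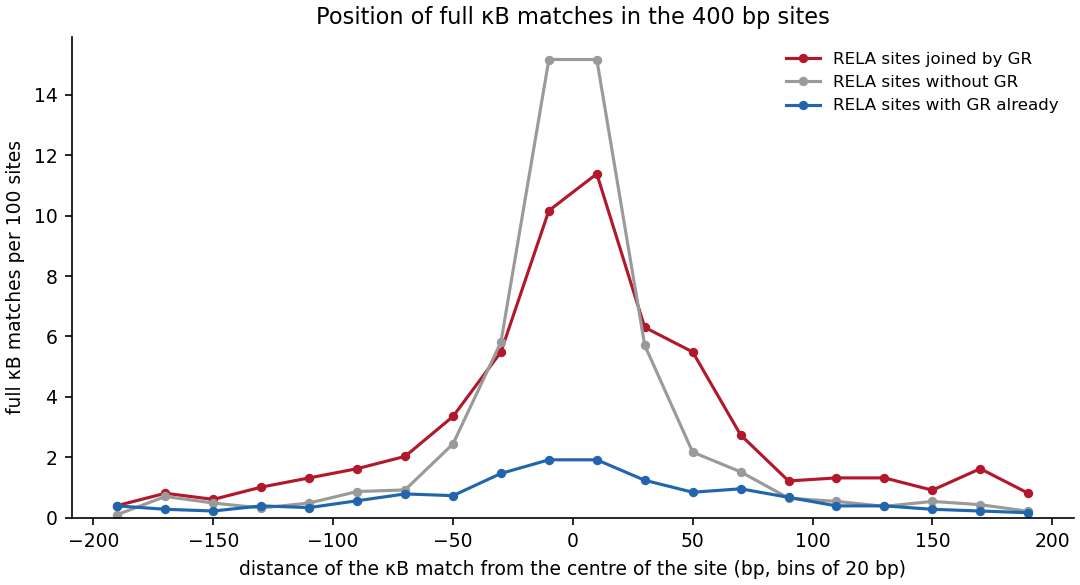
Full κB matches per 100 sites by distance from the centre of the 400 bp site (bins of 20 bp), for RELA sites joined by GR, sites without GR and sites with GR already. The peak at the centre is lower and broader at joined sites, where 36.8% of matches lie within 20 bp, than at sites without GR, where 56.1% do.

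Among joined sites the RELA difference varied with the elements present. The 24 sites with a GRE of at least 10 positions had a median RELA difference of 0.82, and none was lower by 0.5, whereas the 960 others had a median of -0.17. Their RELA with IL-1β was lower, with a median of 4.73 against 5.61, so the ranges are given too. Where RELA with IL-1β was 4 to 5, the median difference was 0.89 at 16 sites with a GRE and 0.35 at 251 sites with none. At 5 to 6 it was 0.82 at 6 sites and -0.16 at 370 sites. Sites with a full κB match had a median of 0.63 in the range of 4 to 5 and those with none 0.21, and at 5 to 6 the medians were -0.05 with a match and -0.27 with none. At 6 or above they were -0.32 with a match and -0.53 with none. For AP-1 the order was opposite, with medians of 0.21 at sites with a match and 0.43 at those with none in the range of 4 to 5, and of -0.50 with a match and -0.39 with none at 6 or above.

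Only 4 joined sites (0.407%) matched 11 or more GRE positions, against none of the 1840 sites without GR, 1.19% of sites with GR already, 0.524% of all distal RELA sites and 3.05% of all sites. The share of joined sites thus lay below that of distal RELA sites as a whole. The 4 sites were chosen here after their values were seen. The TNFAIP3 site, 159216 bp upstream of the start in the non-coding gene LINC03004, had GR at 6.33 with I+B and 2.85 with Bud, and RELA at 6.43 with I+B and 6.20 with IL-1β. TNFAIP3 encodes A20, a ubiquitin-editing inhibitor of NF-κB. In an intron of KIFC3, a kinesin gene, GR was 4.87 with I+B and 3.55 with Bud, and RELA was 5.48 with I+B and 4.48 with IL-1β. In an intron of DGKD, a diacylglycerol kinase gene, GR was 4.62 with I+B and 1.70 with Bud, and RELA was 4.86 with I+B and 4.39 with IL-1β. The C11orf95 site had GR at 5.20 with I+B and 2.86 with Bud, RELA at 4.74 with I+B and 4.66 with IL-1β, and no full κB match. RELA with I+B thus exceeded RELA with IL-1β at each of the 4, by as little as 0.08. At KIFC3, DGKD and C11orf95, RELA with IL-1β lay between 4 and 5. In that range the 267 joined sites had a median difference of 0.37, and 26.6% had a difference below 0. The BHLHE40 site, 108881 bp upstream of a gene for a basic helix-loop-helix repressor, had 10 GRE positions, GR at 6.05 with I+B and 3.19 with Bud, and RELA at 6.29 with I+B and 4.80 with IL-1β.

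**Figure D5:**
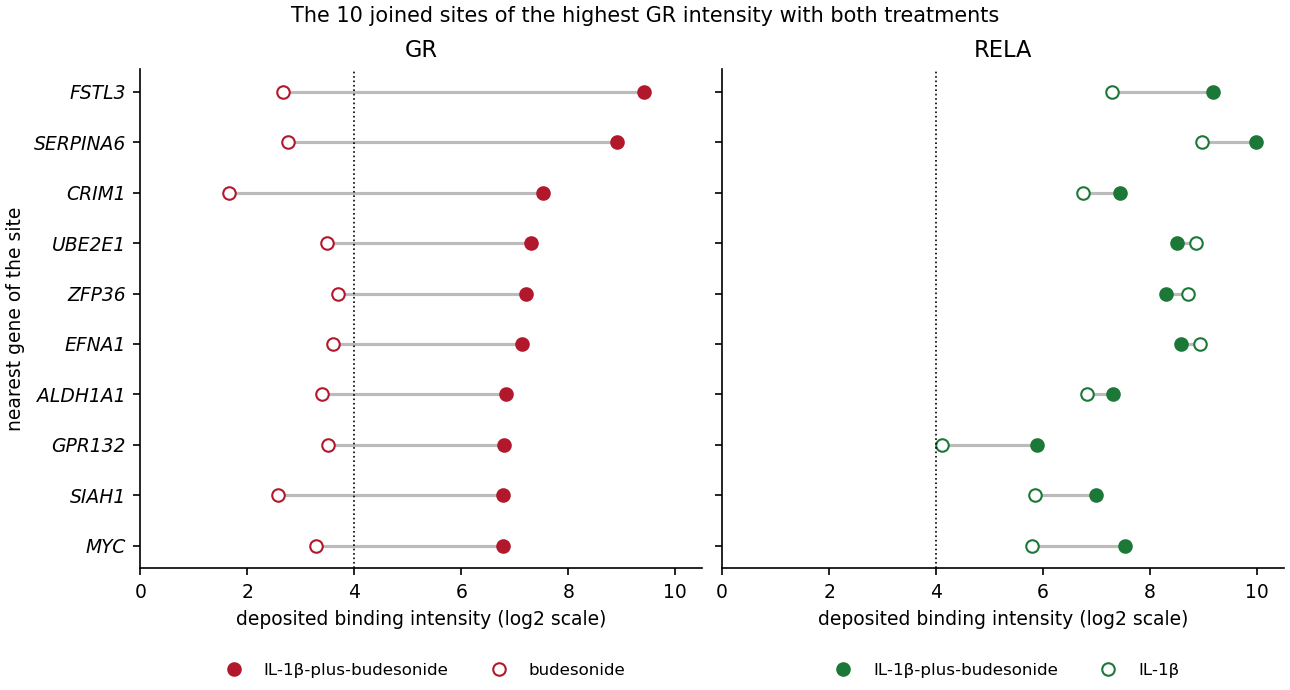
GR (left) and RELA (right) intensities (log2 scale) at the 10 joined sites of the highest GR intensity with IL-1β-plus-budesonide, by nearest gene. Filled circles are IL-1β-plus-budesonide and open circles budesonide (GR) or IL-1β (RELA), and the dotted line is the limit of 4. RELA with both treatments exceeds RELA with IL-1β at 7 of the 10, and is below it at UBE2E1, ZFP36 and EFNA1.

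The highest GR intensity of any joined site was 1420 bp upstream of FSTL3, which encodes a secreted antagonist of activin and is known as a glucocorticoid-induced gene. GR there was 9.41 with IL-1β-plus-budesonide, against 2.66 with budesonide, and RELA was 9.18 with IL-1β-plus-budesonide, against 7.29 with IL-1β. The 400 bp held 7 full κB matches and matched itself at 92.5% of positions when moved by 107 bp, as the repeated units shown above make visible. The second was 22558 bp from SERPINA6, the gene of corticosteroid-binding globulin. Its GR was 8.92 with IL-1β-plus-budesonide, against 2.76 with budesonide, and its RELA was 9.97 with IL-1β-plus-budesonide, against 8.98 with IL-1β. This site also held 7 full κB matches, in 56 bp units with a self-identity of 92.7%. Both sites thus had strong RELA with IL-1β and more RELA with both treatments, while GR with budesonide was close to the joined-site median of 2.82.

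In all, 11 joined sites (1.12%) had a self-identity of at least 60% at a shift of 15 to 150 bp, against 0.543% of sites without GR, 2.71% of sites with GR already and 2.18% of all sites. Their median GR with IL-1β-plus-budesonide was 5.81, against 4.80 at the 973 other joined sites. RELA was higher by at least 0.5 at 7 of the 11, against 15.7% of the 973. NXN, which encodes nucleoredoxin, had the largest RELA difference of all joined sites: RELA was 6.44 with IL-1β-plus-budesonide and 4.28 with IL-1β, and GR was 5.81 with IL-1β-plus-budesonide and 0.95 with budesonide. At FOXP4, a forkhead gene, with a shift of 33 bp and no full κB match, GR was 6.40 with IL-1β-plus-budesonide and 3.89 with budesonide, and RELA was 6.39 with IL-1β-plus-budesonide and 4.34 with IL-1β. The CTBP1 site, in an exon of the gene of a transcriptional corepressor, had 3 full κB matches, with GR at 5.54 with I+B and 2.71 with Bud, and RELA at 5.90 with I+B and 4.18 with IL-1β. Reads from repeated units can align to more than 1 place. Sampled 31-base words found no single-copy word in 19 joined sites (1.93%), against 2.01% of sites without GR. How mapping of repeats enters these intensities was not tested. Without the 11 sites, the median RELA difference of the others was -0.16, against -0.15 for all joined sites.

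Outside repeats, the strongest site lay in an intron of CRIM1, which encodes a transmembrane protein that binds bone morphogenetic proteins. GR was 7.53 with IL-1β-plus-budesonide and 1.65 with budesonide, and RELA was 7.43 with IL-1β-plus-budesonide and 6.75 with IL-1β. Its best κB match had 8 of 9 positions. UBE2E1 (ubiquitin conjugation), ZFP36 (tristetraprolin, which promotes decay of cytokine mRNAs) and EFNA1 (ephrin-A1) followed, and had another pattern. At UBE2E1 RELA was 8.50 with I+B and 8.86 with IL-1β, and GR was 7.30 with I+B and 3.48 with Bud. At ZFP36 RELA was 8.30 with I+B and 8.72 with IL-1β, and GR was 7.22 with I+B and 3.70 with Bud. EFNA1 had RELA at 8.58 with I+B and 8.93 with IL-1β, and GR at 7.14 with I+B and 3.59 with Bud. RELA was thus already high with IL-1β at these 3 sites and slightly lower with I+B. ALDH1A1, a retinaldehyde dehydrogenase gene, had GR at 6.84 with I+B and 3.40 with Bud, and RELA at 7.31 with I+B and 6.82 with IL-1β.

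At the last 3 of the 10 strongest sites RELA was higher with I+B by more than 1. At GPR132, a G protein-coupled receptor gene, RELA was 5.88 with I+B and 4.11 with IL-1β, and GR was 6.80 with I+B and 3.503 with Bud. At SIAH1, a ubiquitin ligase gene, RELA was 7.00 with I+B and 5.85 with IL-1β, and GR was 6.78 with I+B and 2.58 with Bud. In the non-coding gene PVT1, 149145 bp downstream of the start of MYC, RELA was 7.53 with I+B and 5.79 with IL-1β, and GR was 6.78 with I+B and 3.29 with Bud.

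The 5 joined sites with the largest RELA differences upward were NXN (2.16), GPCPD1 (2.13), FOXP4 (2.05), FSTL3 (1.896) and FOSL2 (1.85). GPCPD1, a phosphodiesterase gene of choline metabolism, had RELA at 6.21 with IL-1β-plus-budesonide, against 4.08 with IL-1β, and GR at 6.74 with IL-1β-plus-budesonide, against 3.32 with budesonide. FOSL2, an AP-1 subunit gene, had RELA at 6.48 with IL-1β-plus-budesonide, against 4.62 with IL-1β, and GR at 5.95 with IL-1β-plus-budesonide, against 3.13 with budesonide. Both hold a full κB element in the sequences above. GR with I+B was 5.81 or above at all 5.

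The 5 sites with the largest differences downward were FOXK1 (-2.35), NR4A2 (-1.86), MUC2 (-1.85), TXNRD1 (-1.77) and FNDC3B (-1.73). In an intron of FOXK1, a forkhead gene, RELA was 2.91 with IL-1β-plus-budesonide and 5.26 with IL-1β, while GR was 4.80 with IL-1β-plus-budesonide and 3.63 with budesonide. In an intron of NR4A2, an orphan nuclear receptor gene, RELA was 4.23 with I+B and 6.09 with IL-1β, while GR was 4.89 with I+B and 1.85 with Bud. At TXNRD1, which encodes thioredoxin reductase, RELA was 5.51 with I+B and 7.28 with IL-1β, while GR was 4.29 with I+B and 1.00 with Bud. The MUC2 (mucin) site had RELA at 3.98 with I+B and 5.83 with IL-1β, and the FNDC3B site had RELA at 3.93 with I+B and 5.65 with IL-1β. GR with both treatments lay between 4.05 and 4.89 at these 5.

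Members of 7 lists of genes with known roles in NF-κB or glucocorticoid biology were the nearest gene of 132 joined sites (13.4%), against 9.63% of distal RELA sites and 7.64% of all sites. Of the 459 distal RELA sites nearest to listed genes, 28.8% were joined sites, beside the 20.6% background. The nearest gene is an annotation of the table and was not shown to be the target. The lists were chosen with earlier results of these data known, so the shares given for each list are a description only. Among genes of the NF-κB feedback list, 5 of 18 had 13 joined sites, 34.2% of the distal RELA sites of that list. TNFAIP3 had 5, and TNIP1, whose product is a partner of A20, had 4. The strongest TNIP1 site, in an intron, had GR at 5.88 with I+B and 1.41 with Bud, and RELA at 7.33 with I+B and 7.22 with IL-1β. BCL3 had 2 sites, and TNIP2 and NFKBIZ 1 each. RELA was at least 4 with both treatments at 12 of the 13, lower by 0.5 at 4 and higher at 1 (TNIP2, 4.89 with I+B and 4.34 with IL-1β). Over all joined sites RELA was at least 4 at 97.6%, lower by 0.5 at 26.3% and higher at 16.3%. Over all sites the shares were 61.8%, 23.3% and 34.8%. These are the background for the lists below too.

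Cytokine and chemokine genes had 20 joined sites at 14 of 42 genes, and 30.8% of the distal RELA sites of the list were joined. The strongest GR was 5546 bp upstream of CXCL8, the neutrophil chemokine IL-8, with GR at 6.06 with IL-1β-plus-budesonide, against 0.01 with budesonide, and RELA at 7.11 with IL-1β-plus-budesonide, against 6.71 with IL-1β. The 3 distal sites of CX3CL1 (fractalkine) were all joined, with GR of 5.47, 5.57 and 5.56 with both treatments, against 3.73, 1.31 and 1.88 with budesonide. A site 19312 bp upstream of CCL2, a monocyte chemokine, held 3 full κB elements, and had GR at 5.54 with IL-1β-plus-budesonide, against 3.05 with budesonide, and RELA at 7.11 with IL-1β-plus-budesonide, against 7.06 with IL-1β. CXCL2 went the other way for RELA, at 5.55 with IL-1β-plus-budesonide, against 6.44 with IL-1β, although GR was 5.39 with IL-1β-plus-budesonide and listed at 0 with budesonide. LIF had 3 joined sites with GR between 4.86 and 5.50. RELA at the 20 sites was at least 4 throughout with both treatments, lower by 0.5 at 5 and higher by 0.5 at none. Over all joined sites these shares were 97.6%, 26.3% and 16.3%.

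Receptor and signalling genes had 17 joined sites at 8 of 46 genes. This was 29.3% of the 58 distal RELA sites of the list, beside the 20.6% background. RELA was lower by 0.5 at 2 of the 17 and higher at 4, against 26.3% and 16.3% of all joined sites. IRAK2, a kinase-like adaptor of the IL-1 receptor, had 4 within 24.97 kb, and the strongest had GR at 6.30 with I+B and 3.04 with Bud and RELA at 6.92 with I+B and 7.25 with IL-1β. Another IRAK2 site had RELA at 5.48 with I+B and 4.17 with IL-1β, whereas the RELA difference at the strongest site stayed within the 0.5 limit. SOCS3, an inhibitor of cytokine signalling, had 3, of which the site 42903 bp from the start had GR at 6.75 with I+B and 3.82 with Bud and RELA at 6.39 with I+B and 5.45 with IL-1β. In an intron of JAK1, a cytokine receptor kinase gene, GR was 5.77 with I+B and listed at 0 with Bud, and RELA was 5.83 with I+B and 4.48 with IL-1β. MAP3K8, a kinase gene of the ERK pathway, had 3 joined sites with GR of 4.31 to 5.84.

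Transcription factor genes had 28 joined sites at 18 of 52 genes. This was 23.9% of the distal RELA sites of the list and near the 20.6% background. RELA was lower by 0.5 at 8 of the 28 and higher at 6, against 26.3% and 16.3% of all joined sites. IRF1, an interferon-regulatory factor gene, had 4 of its 5 distal RELA sites joined. The IRF1 site at 15041 bp, shown above with κB elements, had GR at 5.47 with I+B and 2.34 with Bud, and RELA at 5.78 with I+B and 4.94 with IL-1β. KLF6, a zinc finger factor gene, had RELA at 4.97 with I+B and 4.04 with IL-1β, with GR at 5.47 with I+B and 3.21 with Bud. The other BHLHE40 sites had RELA differences of -0.74 and -0.91, whereas that of the upstream site with a GRE was 1.49. EHF, an epithelial ETS factor gene, had RELA at 4.81 with I+B and 6.31 with IL-1β, with GR at 4.51 with I+B and 2.94 with Bud.

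Survival and enzyme genes had the largest share of any list, with 23 joined sites at 16 of 30 genes and 47.9% of the 48 distal RELA sites of the list. CFLAR, which encodes the caspase-8 inhibitor c-FLIP, had 4, with GR with I+B between 4.81 and 6.08 and a RELA difference between -0.39 and 1.03. All 3 distal RELA sites of SOD2, the mitochondrial superoxide dismutase gene, were joined, with GR of 4.21, 4.96 and 5.17 with I+B, against 1.03, 0 and 2.396 with Bud. NAMPT, of NAD synthesis, had a site 138633 bp upstream with GR at 6.23 with I+B and 2.76 with Bud and RELA at 7.37 with I+B and 7.61 with IL-1β. PTGES, a prostaglandin E synthase gene, had RELA at 5.14 with I+B and 6.67 with IL-1β, with GR at 5.16 with I+B and 3.28 with Bud. RELA at these 23 sites was lower by 0.5 at 7 and higher at 3, against 26.3% and 16.3% of all joined sites.

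Adhesion and matrix genes had 13 joined sites at 9 of 37 genes, which was 23.6% of the 55 distal RELA sites of the list and also near the 20.6% background. RELA was lower by 0.5 at 2 of the 13 and higher at 1, against 26.3% and 16.3% of all joined sites. ITGB6, an integrin gene of epithelium, had 3, with RELA differences between -0.0032 and 0.38 and GR with Bud at 0.79, 0.17 and 2.75. Upstream of ICAM1, a leukocyte adhesion gene, GR was 4.15 with I+B and listed at 0 with Bud, and RELA was 5.52 with I+B and 5.63 with IL-1β. Genes known as glucocorticoid targets had 23 joined sites at 16 of 52 genes, which was 23% of their 100 distal RELA sites. The 5 TNFAIP3 sites count here too. FSTL3 and ZFP36 stood highest among them. Others were FOXO1, an insulin-regulated factor gene, with GR at 6.40 with I+B and 2.76 with Bud, ZFP36L2, with 6.19 with I+B and 3.43 with Bud, and MT2A, a metallothionein gene, with 5.78 with I+B and 3.72 with Bud. At MT2A, RELA was 6.50 with I+B and 5.70 with IL-1β. Over the 23 sites of the glucocorticoid target list, RELA was lower by 0.5 at 6 and higher at 2, against 26.3% and 16.3% of all joined sites. RELA was at least 4 with I+B at 21 of the 23. Both joined sites of DUSP1, a phosphatase gene that limits MAP kinases, had lower RELA with I+B, at 5.55 against 6.37 with IL-1β and at 5.41 against 5.93 with IL-1β.

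Joined sites were spread over 797 nearest genes, of which 656 had 1, 106 had 2, 25 had 3, 9 had 4 and TNFAIP3 had 5. The 9 were CFLAR, CMIP, CRIM1, EXT1, IRAK2, IRF1, RIN2, TNFAIP8 and TNIP1. Genes differed in which way RELA went over their joined sites. At RIN2, an endosomal RAB5 regulator gene, RELA was higher with I+B at all 4 sites, by 0.04 to 0.82, and at TP53BP2, a p53-binding protein gene with 3 joined sites, by 0.79 to 0.92. At TNFAIP8, RELA was lower at all 4, with differences between -1.38 and -0.45, and at EXT1, a heparan sulfate polymerase gene, between -0.71 and -0.22. At TNFAIP3 the 5 differences ran from -0.65 to 0.49. Some of these differences lay within the 0.5 limit, and a small difference at a single site cannot be told from noise. Sites of 1 gene can share chromatin and are not independent. When joined sites less than 50 kb apart were chained, 729 stood alone, and there were 85 pairs, 19 runs of 3 and 7 runs of 4, at CRIM1, CFLAR, RIN2, IRAK2, IRF1, TNIP1 and TNFAIP3. The 4 TNIP1 sites lay within 14.5 kb.

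The median distance to the start was 38.1 kb, with 347 joined sites upstream and 637 downstream, 188 within 10 kb and 408 beyond 50 kb. Introns of protein-coding genes held 478 (48.6%), exons 48 (4.88%), other genes alone 125 (12.7%) and intergenic DNA 333 (33.8%), against 47.0%, 4.23%, 15.7% and 33.0% of all sites in GENCODE 44.

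Many joined sites had other bound sites nearby. Another RELA site lay within 10 kb at 394 (40.0%), against 21.4% of sites without GR and 39.0% of sites with GR already. A site bound by GR with Bud lay within 10 kb at 232 (23.6%, Wilson 95% interval 21.0 to 26.3), against 13.7% of sites without GR, 39.8% of sites with GR already and 25.5% of all distal RELA sites. Another joined site lay within 10 kb at 147 (14.9%), against 6.03% of sites without GR and 9.20% of sites with GR already. Joined sites with a GR site near by had GR with I+B at a median of 4.89 and a median RELA difference of -0.21, and those with none had 4.78 and -0.13. The 752 sites with no such neighbour made up most of the joined sites.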

How the data were processed

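The 18 A549 ChIP-seq libraries covered 9 conditions, each with 2 libraries. The submitters' processing notes name bcl2fastq, FastQC 0.10.1, Bowtie2 2.4.4, SAMtools, MACS2 2.2.7.1 and DiffBind 3.2, with GRCh38. The authors deposited 1 table of 11571 sites of 400 bp, and the deposited binding intensities, pooled over libraries, were used as log2 values. Their log base and scaling are not given in the sources used here, log2 being what DiffBind writes, and the lowest value is 0. NS, GR with IL-1β alone and RELA with budesonide alone were not analysed here. The table also holds the authors' own comparisons (fold to NS, FDR, significance, behavior and trend), which were not used. Depth per library is unknown.

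Differences were IL-1β-plus-budesonide minus the single treatment. Motifs were searched on both strands in GRCh38 sequence within 200 bp around the centre, with windows 2000 bp away as control, and matches whose starts lay less than 10 bp apart counted as 1. Genes and exons came from GENCODE 44. Wilson 95% intervals cover counting error only. A tandem repeat was a self-identity of at least 60% at a shift of 15 to 150 bp. Copy number was read from 5 words of 31 bases per site. Scripts were tested on simulated data, and ran in Python 3.11.15 with NumPy 2.4.6, pandas 2.3.3, pysam 0.24.0, SciPy 1.17.1 and Matplotlib 3.10.9.

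Sites named were the 10 of the highest GR intensity with both treatments, the 5 of the largest RELA difference in each direction, those nearest to listed genes, genes with 4 or more joined sites, sites at the limits of the rule and sites of the motif and repeat classes. The joined sites and the gene lists were chosen with earlier results of these data known.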

Additional observations from a re-analysis of the deposited data

How the results depend on the processing

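The median RELA difference kept its sign under each of its 3 alternatives. These could hardly change it, because 1 kept only sites of stronger RELA and the others left out few sites. Where RELA with IL-1β was 4 to 5, the median was 0.37 at 267 joined sites. A GR difference of at least 2 left 517 joined sites, and limits of 3.5 and 4.5 gave 1169 and 678. Restricting to RELA of at least 5 with IL-1β moved the median RELA difference to -0.30. With a limit of 1 in place of 0.5, RELA was lower at 63 and higher at 55 sites, and with 0.25 it was lower at 433 and higher at 249. The GRE share was 0.407% at 11 positions, 16.9% at 9, 1.12% in 100 bp and 4.17% in 400 bp. The κB share was 83.0% at 8 positions, 33.2% in 100 bp and 47.4% in 400 bp, and the AP-1 share was 12.2% in 100 bp and 27.7% in 400 bp. A GR site with budesonide lay within 5 kb of 13.4% and within 50 kb of 52.3%. These shifts follow from the wider or narrower windows and limits. Leaving out tandem repeats was chosen after seeing the data and gave a median RELA difference of -0.16, a GRE share of 2.47% and a κB share of 41.9%. No paired analysis was possible because the table holds no values per library, and leaving out each replicate could not be run for the same reason. Depth and replicate error are unknown, so a small difference at a single site cannot be told from noise.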

Other observations

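The 31 joined sites at which GR with budesonide was listed at 0 had a median RELA intensity of 5.57 with IL-1β-plus-budesonide and 5.60 with IL-1β, and a median RELA difference of -0.06, against -0.16 at the 953 with GR above 0. Among the 31, the site in an exon of TCHH (trichohyalin) had the highest GR, at 6.07 with IL-1β-plus-budesonide, and RELA at 6.24 with IL-1β-plus-budesonide, against 5.60 with IL-1β. It was followed by JAK1 at 5.77, RMDN2 at 5.61, SLX4IP at 5.58, PHACTR1 at 5.50 and SMAD2 at 5.48. At SLX4IP, RELA was 7.22 with IL-1β-plus-budesonide, against 7.98 with IL-1β. The genes of this paragraph other than JAK1 were chosen after their values were seen.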
